A study of Mus musculus with 8 samples.

Results

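The replication-dependent histone genes are the genes that make the bulk of the core and linker histones. They were taken as every gene of the GENCODE M21 annotation (GRCm38, the build called mm10) whose symbol begins with Hist1h, Hist2h, Hist3h or Hist4. This rule found 70 of 55450 annotated genes, of which 67 were protein-coding and 3 were pseudogenes. The Hist1 cluster on chromosome 13 held 56 of them, the Hist2 cluster on chromosome 3 held 10, the Hist3 cluster on chromosome 11 held 3, and Hist4h4 on chromosome 6 stood alone. By histone type there were 6 H1, 20 H2A, 19 H2B, 12 H3 and 13 H4 genes. Chromatin accessibility was measured in pachytene spermatocytes by ATAC-seq, in which a transposase inserts sequencing adapters into open DNA. These are the male germ cells of meiotic prophase in which the homologous autosomes are fully paired, whereas the X and Y stay largely unpaired. The 8 libraries came from 2 groups of 4. The Arid1a WT animals carried the floxed allele without Cre (Arid1a fl/fl or fl/+), and the Arid1a cKO animals were Arid1a fl/fl with a Stra8-Cre transgene (Tg/0), so both groups carried at least 1 floxed allele on a CD1 background. Arid1a encodes a subunit of the BAF (SWI/SNF) chromatin remodeler, and Stra8-Cre acts in spermatogonia. Cells were purified by gravity sedimentation from pooled testes of adult males, so a library is a pool of animals and a fraction enriched for, not made only of, pachytene cells. Deletion was incomplete in the methods of the study, and the cKO libraries also held cells that kept ARID1A.

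Histone genes of these clusters are short, mostly lack introns, and are transcribed in S phase, when new nucleosomes are needed. Their transcripts end in a conserved stem-loop that is bound by SLBP and cut without addition of a poly(A) tail, and their transcription is organised by NPAT at the histone locus body. Pachytene spermatocytes have passed their last S phase. They are known for testis variants that replace somatic histones in the germ line: the H2B variant TH2B from Hist1h2ba (newer symbol H2bc1), the H2A variant TH2A from Hist1h2aa (H2ac1) and the linker histone H1T from Hist1h1t (H1f6).

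The sequences of the genes matched their labels. A match to the histone 3′ stem-loop consensus lay on the sense strand within 300 bp after the last codon in 62 of 67 protein-coding members. The pseudogene Hist3h2bb-ps, which has no annotated coding end, also had a match, so that 63 of all 70 members had a match. In the protein-coding members the match began 25 to 62 bp after the last codon (median 35 bp). Only single-exon transcripts were annotated for 65 members. The 7 members without a match were Hist1h2an, Hist1h2bp, Hist1h2bq, Hist1h2br, Hist2h2be and the pseudogenes Hist1h2aj and Hist1h2al. The search counted from the outermost coding end of all transcripts. Hist1h2bp, Hist1h2bq and Hist1h2br have multi-exon transcripts with long coding spans (Hist1h2bq, chr13:21808103-21810171). A stem-loop after an earlier coding end would have been missed there, so these genes are not shown to lack it. Only 8 different stem-loops were found, and the form printed for Hist1h2aa was shared by 39 members. These 16 bases are shown, as RNA-sense DNA letters of GRCm38.p6 with the 4 loop bases in capitals, because they are the feature that sets these transcripts apart from others.

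Hist1h2aa, chr13:23934891-23934906, plus strand: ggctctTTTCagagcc
Hist1h2ba, chr13:23933730-23933745, minus strand: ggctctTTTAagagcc
Hist1h1t, chr13:23696525-23696540, plus strand: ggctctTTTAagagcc
Hist1h4h, chr13:23531458-23531473, plus strand: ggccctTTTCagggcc

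The testis variants kept the canonical 3′ end: the stem of Hist1h2ba and Hist1h1t was that of Hist1h2aa, with 1 loop base changed. The H4 genes differed from the others in the stem itself, as the Hist1h4h sequence shows.

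Promoter sequences were available in the RefSeq promoter table (GRCm38.p6) for 62 members, and all 70 members had a RefSeq gene. The 250 bp before the start were searched on both strands for the CCAAT box, the TATA box TATAAA, the octamer ATTTGCAT that POU2F1 (OCT1) binds in H2B promoters, and the H1 box AAACACA. None of these words contains another. The CCAAT box was present in 82.3% of the members' promoters (51 of 62) and in 34.5% of 27025 promoters in the table. The TATA box was present in 46.8% against 13.0%, the octamer in 22.6% against 1.61%, and the H1 box in 14.5% against 6.22%. The words divided by histone type. The CCAAT box was in all 6 H1, all 18 H2A and all 16 H2B promoters, and in 3 of 12 H4 promoters. The octamer was in 7 of 18 H2A and 7 of 16 H2B promoters and in no H1, H3 or H4 promoter, and the H1 box was in 5 of 6 H1 promoters. The promoter stretches of divergent partners can overlap, as at Hist1h2ah and Hist1h2bk. A word in the overlap is then counted for both genes, so these counts are not independent. The promoters printed next are given in lower case with these words, on either strand, in capitals: those of the testis variants, of the pair Hist1h2ag/Hist1h2bj with the second highest peak in cKO, and of Hist1h1b, an H1 gene without a peak.

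Hist1h2ba, upstream of the start, chr13:23934157-23934406, minus strand: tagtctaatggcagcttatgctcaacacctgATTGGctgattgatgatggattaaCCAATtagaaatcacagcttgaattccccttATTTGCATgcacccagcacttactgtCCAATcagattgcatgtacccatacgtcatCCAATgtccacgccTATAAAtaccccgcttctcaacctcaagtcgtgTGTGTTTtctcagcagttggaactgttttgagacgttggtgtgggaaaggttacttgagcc
Hist1h1t, upstream of the start, chr13:23695561-23695810, plus strand: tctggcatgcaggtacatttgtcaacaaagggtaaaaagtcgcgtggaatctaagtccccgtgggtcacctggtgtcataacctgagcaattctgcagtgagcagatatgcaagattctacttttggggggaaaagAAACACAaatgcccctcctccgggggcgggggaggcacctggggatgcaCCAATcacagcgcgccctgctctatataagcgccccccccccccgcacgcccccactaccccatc
Hist1h2ag, upstream of the start, chr13:22042950-22043199, minus strand: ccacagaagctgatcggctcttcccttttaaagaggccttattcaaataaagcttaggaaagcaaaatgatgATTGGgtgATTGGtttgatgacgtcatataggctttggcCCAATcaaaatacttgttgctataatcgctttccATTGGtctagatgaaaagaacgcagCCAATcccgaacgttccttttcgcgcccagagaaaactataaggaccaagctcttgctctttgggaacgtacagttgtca
Hist1h1b, upstream of the start, chr13:21780626-21780875, minus strand: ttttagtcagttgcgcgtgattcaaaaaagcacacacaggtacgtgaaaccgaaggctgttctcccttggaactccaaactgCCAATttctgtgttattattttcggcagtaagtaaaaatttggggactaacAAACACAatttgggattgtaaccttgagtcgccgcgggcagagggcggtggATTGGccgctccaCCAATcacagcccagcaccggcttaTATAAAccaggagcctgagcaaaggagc

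The Hist1h2ba stretch lies between Hist1h2ba and Hist1h2aa, which are transcribed away from each other, and so is upstream of both genes. It held all 4 words, whereas the Hist1h1t stretch held the CCAAT and H1 boxes, and the Hist1h2ag stretch held the CCAAT box alone. Hist1h1b held the CCAAT, TATA and H1 boxes and had no peak in either list. Over all members, the CCAAT box was in 27 of 31 promoters of genes with a peak in both lists and in 21 of 27 of those with none, and the TATA box was in 12 of 31 and 15 of 27. The octamer was in 9 of 31 and 4 of 27, and the H1 box in 6 of 31 and 2 of 27. Each word was thus found both in members with a peak and in members without, and the differences were not tested.

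The accessible regions of each genotype were deposited as 1 peak list, made by intersecting the 4 replicates. Replicate spread is therefore unknown, no test between the genotypes was possible, and differences are given as counts and values side by side. A peak is the interval spanned by all rows of a list that carry the same peak name, and its fold enrichment divides the summit pileup plus 1 by the library background plus 1. All values of a list came from 1 of its 4 libraries, and values below are said to be in WT or in cKO for the respective list. The WT list held 19309 peaks and the cKO list 30244, the backgrounds were 4.33 and 5.11 fragments per base, and the weakest peaks had 13 and 14 fragments at the summit. The depth of the other libraries is unknown. Among genes that mark cell types, a peak lay at a promoter of 8 of 8 pachytene spermatocyte markers in both lists. It lay at 1 of 8 spermatogonial markers in WT and 4 of 8 in cKO (3.56-fold in WT, median 3.19-fold in cKO), and at 3 and 4 of 6 spermatid markers, with medians of 7.88-fold and 23.0-fold. The neighbours Prm2 and Tnp2 both had 32.4-fold and 8599 bp in cKO, so the same value enters that median for both genes. In WT they had 3.19-fold and 17.8-fold. Spaca1 had 7.88-fold in WT and 13.6-fold in cKO, and Prm1 had 3.44-fold in cKO alone. Markers of testicular somatic cells had a peak at 3 of 8 in each list, with medians of 3.19-fold and 4.75-fold. Among these, Amh had 3.19-fold in WT and 13.4-fold in cKO, Gata4 had a peak in WT alone and Wt1 in cKO alone, and Sox9, Cyp17a1, Insl3 and Acta2 had none. The part of other cell types in the values below was not tested. In such bulk libraries fewer cells with an open site and less opening per cell cannot be told apart.

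A peak lay in the body or the 1000 bp upstream of 37 of the 70 histone genes in WT (52.9%; 41.3 to 64.1, 95% Wilson interval) and of 41 in cKO (58.6%; 46.9 to 69.4). Over all 21951 protein-coding genes, 55.3% had such a peak in WT and 63.6% in cKO, so the share of histone genes was near the background in both. All 37 genes with a WT peak also had a cKO peak, 4 genes had a peak in cKO alone, none in WT alone, and 29 had none. The background of genes with a peak in 1 list alone was 8.63% for cKO and 0.346% for WT, against 4 and 0 of the 70 histone genes. Histone genes are short (median 532 bp, against 17403 bp for protein-coding genes), which leaves them less sequence in which a peak can fall. With the window limited to 1000 bp upstream to 100 bp downstream of the gene start, 36 (51.4%) had a WT peak and 38 (54.3%) a cKO peak, against 44.3% and 51.1% of protein-coding genes. Counting the start of any annotated transcript, the background was 49.6% and 56.7%, and the members' counts stayed 36 and 38. The annotated start itself was covered in 31 and 36 histone genes, against 41.8% and 48.9% of protein-coding genes. Intervals cover counting error only, and neighbouring genes share peaks and are not independent.

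**Figure D1:**
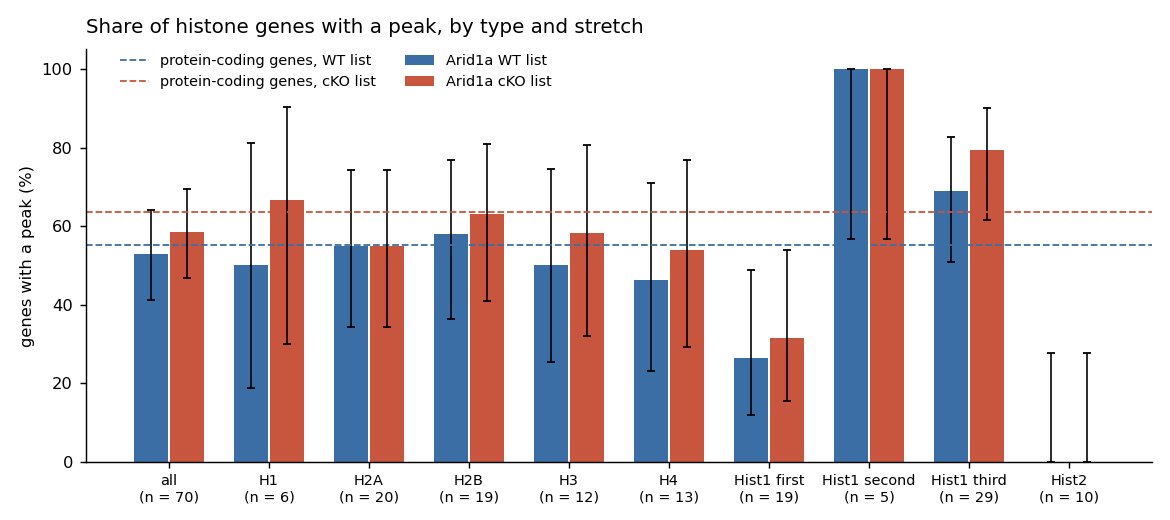
Share of histone genes with a peak in the body or 1000 bp upstream (y axis, percent) for all members, each histone type, and the larger stretches of the clusters, in the Arid1a WT list (blue) and the Arid1a cKO list (red). Error bars are 95% Wilson intervals, which cover counting error only, and dashed lines are the shares over protein-coding genes (55.3% and 63.6%). The histone types lie near the lines with wide intervals, whereas the Hist1 second stretch is at 5 of 5 genes and Hist2 at 0 of 10.

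Counts by histone type lay close to each other. In the WT list a peak was found at 3 of 6 H1, 11 of 20 H2A, 11 of 19 H2B, 6 of 12 H3 and 6 of 13 H4 genes. In the cKO list the counts were 4 of 6, 11 of 20, 12 of 19, 7 of 12 and 7 of 13. Each of these shares had a Wilson interval that held the background of its list. The median fold enrichment of the strongest peak ranged from 3.94 for H1 to 6.28 for H4 in WT, and from 6.38 for H1 to 12.8 for H4 in cKO. The strongest peak in a window can belong to a neighbour. In cKO, Hist1h4i entered with 17.3-fold (own peak 4.25-fold), Hist1h1a with 13.3-fold (own peak 4.58-fold) and Hist1h3h with 7.36-fold (own peak 4.42-fold). The order of the types in cKO therefore depends on such values, and medians of own peaks were not computed. The ranges of single genes overlapped between all types.

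Shares differed by position, which was not tested. The Hist1 cluster fell into stretches, which were divided wherever neighbouring members lay over 100 kb apart. In the first stretch (chr13:21715763-21837530) 5 of 19 genes had a WT peak and 6 a cKO peak (26.3% and 31.6%). All of these lay at its left end, from Hist1h2bl to Hist1h4j, and the next 13 genes, from Hist1h4k to Hist1h2br, had none in either list. In the second stretch (chr13:22035164-22043676) all 5 genes had a peak in both lists. In the third stretch (chr13:23531050-23764406) 20 of 29 genes had a WT peak and 23 a cKO peak (69.0% and 79.3%). The pair Hist1h2ba/Hist1h2aa and the pseudogene Hist1h2al, which lie apart from the rest on chromosome 13, had a peak in both lists, as did the 3 Hist3 genes and Hist4h4. None of the 10 Hist2 genes (chr3:96219865-96270132) had a peak in either list, and the upper Wilson limit of that share was 27.8%. The peak-free interval around Hist2 was 220 kb long in WT and 219 kb in cKO and also held the protein-coding genes Bola1 and Fcgr1. Of the intervals between neighbouring peaks on chromosome 3, 21.4% were at least as long in WT and 14.0% in cKO. Around the 13 Hist1 genes without a peak the interval was 139 kb and 126 kb, and 30.6% and 21.5% of those on chromosome 13 were at least as long. Peak-free intervals of these lengths were therefore common in both lists. This comparison is of length alone. The interval around Hist2 held 12 protein-coding genes in each list, and that in Hist1 held 14 in WT and 13 in cKO. How often an interval with so many genes lacks a peak was not computed.

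**Figure D2:**
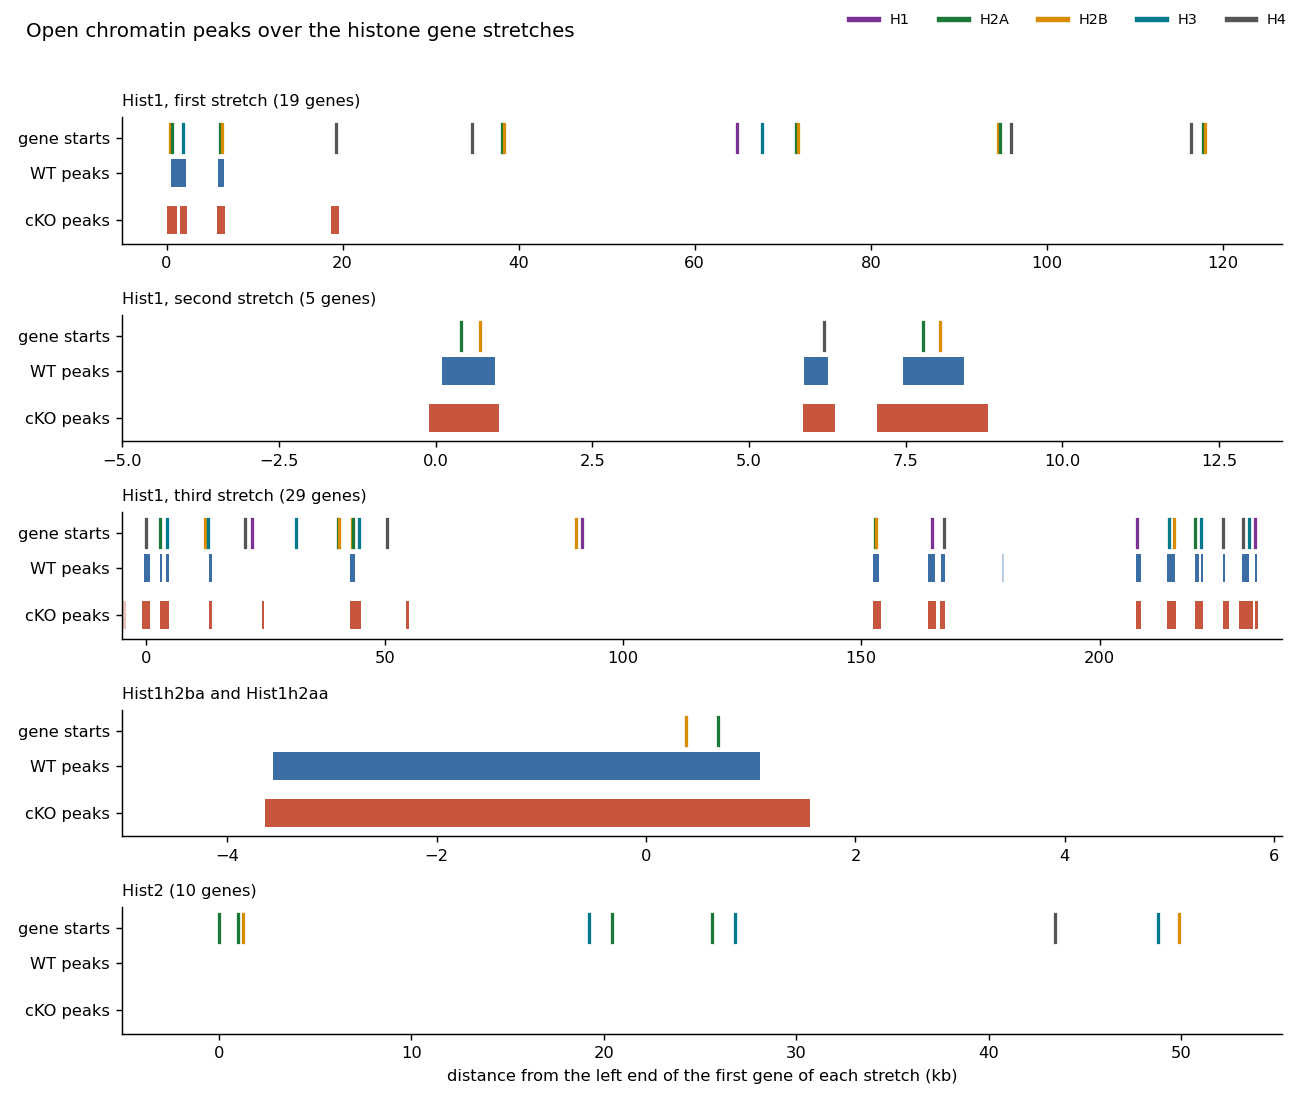
Map of the larger stretches, with distance in kb from the left end of the first gene (x axis, a scale for each panel), gene starts as ticks coloured by histone type, WT peaks in blue and cKO peaks in red; peaks outside every histone gene window are pale. Peaks of the lists lie over the same genes, the right part of the first stretch and all of Hist2 are empty, and the peak over Hist1h2ba and Hist1h2aa reaches far to the left of both gene starts.

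Several members have near-identical copies, from which a single 50-bp read can match more than 1 place. The share of 50-mers in a gene's window that occur at a single place in the genome was under 50% for 8 members, and none of these had a peak. Of these, 6 lie together at the right end of the first stretch (Hist1h2bq, Hist1h2ao, Hist1h4m, Hist1h4n, Hist1h2ap and Hist1h2br, 0 to 3.7% unique), and the others are Hist2h3c2 (23.2%) and Hist2h3c1 (44.6%). Among the 15 members with at least 90% unique 50-mers, 7 had a WT peak and 9 a cKO peak. Among the 47 in between, 30 and 32 had a peak. Of the 29 members without a peak, 21 had at least 50% unique 50-mers, among them Hist1h1b (100%), Hist2h4 (99.2%), Hist1h1e (94.5%) and Hist2h2ab (94.3%). With the 62 members of at least 50% unique 50-mers alone, 59.7% had a WT peak and 66.1% a cKO peak. No filter on mapping quality was stated, and how reads of repeated copies were placed is not given in the sources used here.

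**Figure D3:**
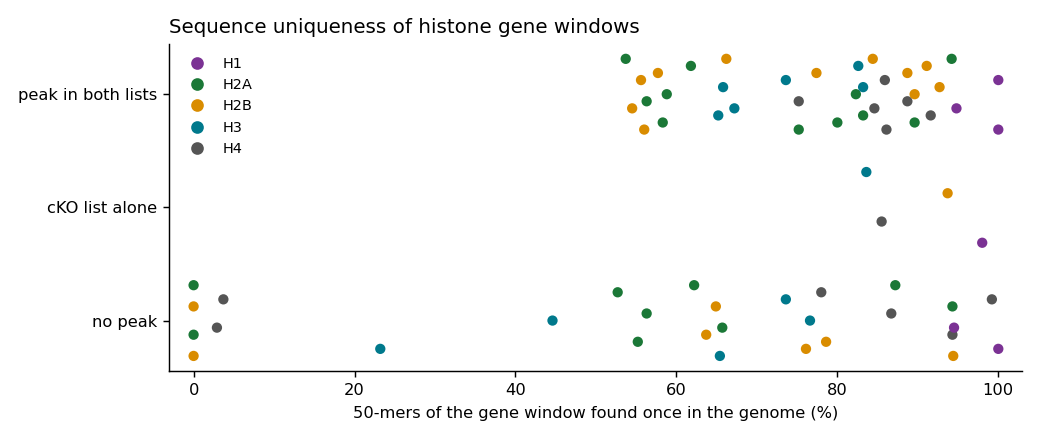
Share of the 50-mers of each gene's window that occur at a single place in the genome (x axis, percent), for genes with a peak in both lists, in cKO alone, and in neither (y axis, points shifted vertically for clarity, coloured by histone type). The 8 members under 50% all lie in the row without a peak, where 21 members of higher uniqueness lie too.

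Among the 70 cluster members, the strongest peak covered the divergent pair of testis variants Hist1h2ba (TH2B, chr13:23933773-23934156, minus strand) and Hist1h2aa (TH2A, chr13:23934462-23934851, plus strand). Both are single-exon genes, and the peak covered both whole. In the WT list it had 81 fragments at the summit (exact Poisson 95% interval 64.3 to 101) and a fold enrichment of 15.4, above 94.4% of the list. In the cKO list it had 159 fragments (135 to 186) and a fold enrichment of 26.2, above 97.0% of the list. The intervals of the fold enrichment, 12.3 to 19.1 and 22.3 to 30.6, did not overlap, and they cover counting error in 1 library of each genotype only. The peak was also the widest among the members, at 4654 bp in WT (chr13:23930207-23934860) and 5208 bp in cKO (chr13:23930132-23935339). Most of it lay beyond the 3′ end of Hist1h2ba. Its summit stood at chr13:23934245 in WT and chr13:23934226 in cKO, 89 and 70 bp upstream of the Hist1h2ba start, and so within the sequence printed above.

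Hist1h1t (H1T, chr13:23695814-23696725, plus strand) had a peak of ordinary strength. Its fold enrichment was 6.19 in WT (32 fragments, 21.9 to 45.2, width 1376 bp) and 7.53 in cKO (45 fragments, 32.8 to 60.2, width 1587 bp). The intervals of the lists overlapped. The summit in cKO, chr13:23695771, lay 43 bp upstream of the start, within the printed promoter. Among the other linker histone genes, Hist1h1c had a peak of 3.94-fold in WT (20 fragments, 1045 bp) and 5.24-fold in cKO (31 fragments, 968 bp). Hist1h1a had a peak of its own of 3.19-fold and 441 bp in WT, and of 4.58-fold and 742 bp in cKO. In the cKO list the Hist1h1a window was also reached by the 13.3-fold peak of its neighbours Hist1h4a and Hist1h3a. Hist1h1d had a peak in cKO alone, and Hist1h1b and Hist1h1e had none in either. In the WT list Hist1h1t thus had the highest fold enrichment of the 6 H1 genes, and in cKO its peak exceeded those on the other H1 genes except the one shared with Hist1h4a and Hist1h3a.

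After the testis pair, the highest WT values were those of Hist1h4h (12.0-fold, 1204 bp) and of the divergent pair Hist3h2a and pseudogene Hist3h2bb-ps (11.1-fold, 1937 bp). In the cKO list these peaks had 16.5-fold and 1718 bp, and 12.6-fold and 2695 bp. The second highest cKO value belonged to the peak over Hist1h2ag and Hist1h2bj, with 17.3-fold and 1771 bp, against 9.19-fold and 967 bp in WT. It also reached the window of Hist1h4i, whose own peak was weak in both lists (3.38-fold and 384 bp in WT, 4.25-fold and 502 bp in cKO).

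**Figure D4:**
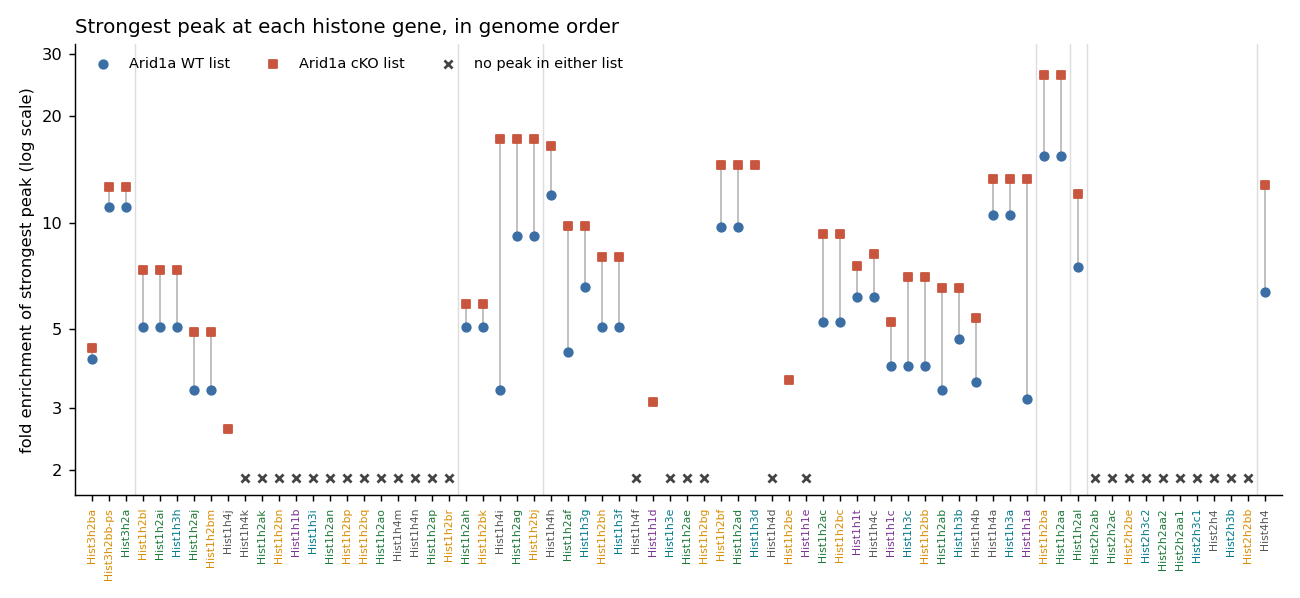
Fold enrichment of the strongest peak in the window of each of the 70 histone genes (y axis, log scale), in genome order along chromosomes 11, 13, 3 and 6 (x axis, names coloured by histone type), in the Arid1a WT list (blue circles) and the Arid1a cKO list (red squares); grey verticals part the stretches and crosses mark genes without a peak. The pair Hist1h2ba/Hist1h2aa is highest in both lists at 15.4 and 26.2, and runs of crosses mark the right part of the first Hist1 stretch and Hist2.

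Peak strength over the list of histone genes was set beside that of protein-coding genes at large. The median fold enrichment of their strongest peak was 5.07 in WT (37 genes, order-statistic 95% interval 5.07 to 6.57) and 8.18 in cKO (41 genes, 7.04 to 12.6). Over protein-coding genes with a peak it was 8.25 and 11.5, above the members' interval in WT and within it in cKO. With promoters of any transcript alone, the medians were 5.16 (4.69 to 7.5) and 9.33 (7.36 to 12.8) for histone genes and 8.63 and 12.3 for protein-coding genes, with the same relation to the intervals. Members with at least 90% unique 50-mers had medians of 5.25 and 7.53. The median width was 1045 bp in WT and 1587 bp in cKO, against 1047 and 1441 bp for protein-coding genes. Genes that share a peak enter these medians with the same value.

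By its strongest peak, every histone gene with a peak in both lists had the higher fold enrichment in cKO (37 of 37). The same was so for 97.1% of protein-coding genes with both peaks. The strongest peak was wider in cKO for 33 of 37, where 94.5% of protein-coding genes had the wider peak. For Hist1h3h the higher fold enrichment rests on the 7.36-fold cKO peak over Hist1h2bl and Hist1h2ai. The cKO peak over its own start had 4.42-fold, against 5.07-fold for the WT peak it shares with Hist1h2ai. The median ratio of cKO to WT was 1.49 for fold enrichment and 1.43 for width, and over protein-coding genes it was 1.56 and 1.45. These shifts were therefore of the size seen over the genome. The values of the lists came from 1 library each, so library and genotype cannot be told apart.

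The same was seen peak by peak. The members' windows held 25 distinct WT peaks and 27 distinct cKO peaks. Each of the 25 WT peaks overlapped a cKO peak. The strongest overlapping cKO peak had the higher fold enrichment in all 25 and the greater width in 23, and 19 WT peaks lay wholly within it. The ratio of cKO to WT fold enrichment ranged from 1.07 at Hist3h2ba to 2.28 at Hist1h2af, with a median of 1.45. The value at Hist1h2af compared different sites: the 9.82-fold cKO peak was shared with Hist1h3g, and its summit, chr13:23535278, lay outside the WT peak of Hist1h2af (4.31-fold) and within that of Hist1h3g (6.57-fold, ratio 1.5, intervals overlapping). The cKO peak matched to Hist1h2ab likewise had its summit within the WT peak of Hist1h3b. Without these 2 peaks, the highest ratio was 2.0, at Hist4h4, and the median of the other 23 was 1.45. Among these 23, the cKO summit could not be placed at some, Hist1h2ag/Hist1h2bj among them, so a shared site is not shown there. At Hist1h3c/Hist1h2bb (ratio 1.79) the summit was placed at chr13:23745385 in WT and chr13:23746386 in cKO, both within the WT peak. The Poisson intervals of the fold enrichment did not overlap for 3 of these 23 peaks, those at Hist1h2ba/Hist1h2aa, at Hist1h2ag/Hist1h2bj and at Hist4h4 (6.38 against 12.8), the latter named after its values were seen.

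**Figure D5:**
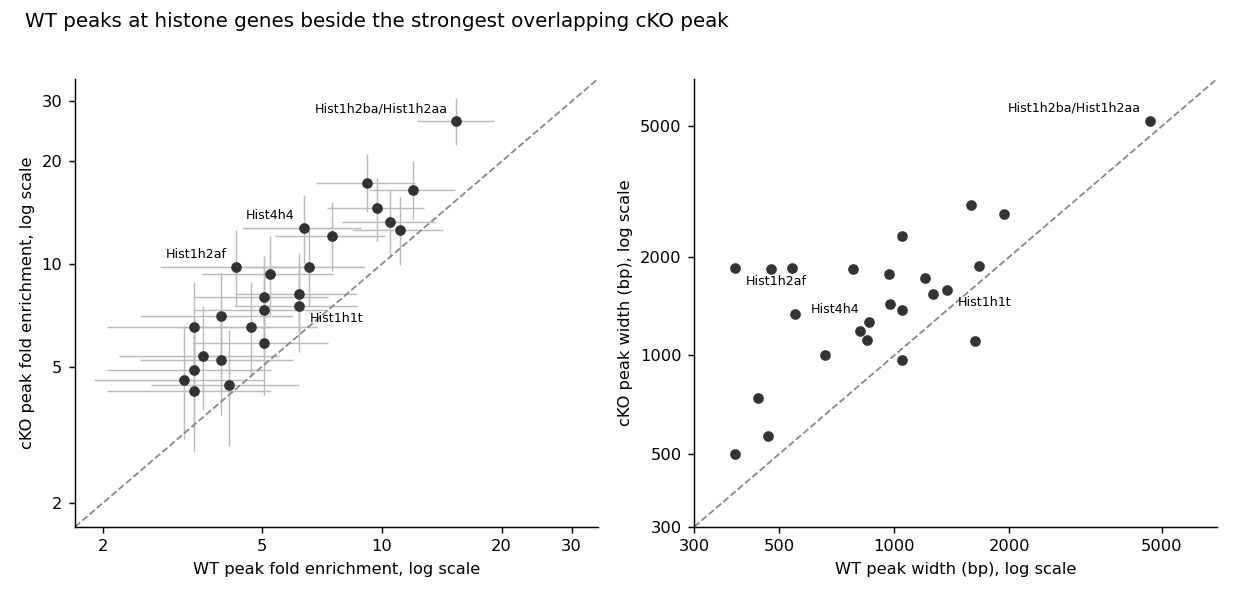
The 25 WT peaks at histone genes against the strongest cKO peak that overlaps each, by fold enrichment (left, log scales, grey bars are exact Poisson 95% intervals for counting error in 1 library per list) and by width in bp (right, log scales); the dashed line marks equal values. All 25 points lie above the line for fold enrichment and 23 for width, with Hist1h2ba/Hist1h2aa at the top right in both.

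Among the genes with the largest changes of width, some had peaks that joined and others took the value of a neighbour's peak. The ratio of cKO to WT width was largest at Hist1h1a (441 to 2877 bp, ratio 6.52), Hist1h2af (384 to 1843 bp, 4.80), Hist1h4i (384 to 1771 bp, 4.61), Hist1h3b (477 to 1841 bp, 3.86) and Hist1h3g (540 to 1843 bp, 3.41). For Hist1h1a and Hist1h4i the strongest cKO peak in the window was that of a neighbour, and for their own peaks the ratios were 1.68 and 1.31. Hist1h2af and Hist1h3g each had a WT peak, and a single cKO peak (chr13:23533913-23535755) covered both. Hist1h2ab and Hist1h3b were likewise joined by the cKO peak chr13:23750989-23752829. The reverse was seen at the left end of the first stretch, where the WT peak chr13:21716313-21717943 of 1631 bp overlapped 2 cKO peaks, 1 over Hist1h2bl and Hist1h2ai and 1 over Hist1h3h. The intersection of replicates sets the ends of these intervals, and its part in the joins was not tested.

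The peaks with most genes lay where members of different types adjoin. A peak reached 3 gene windows 1 time in WT and 4 times in cKO. Hist1h2bl, Hist1h2ai and Hist1h3h shared a peak in both lists (5.07-fold in WT and 7.36-fold in cKO). In the cKO list the other peaks of this kind were those of Hist1h4i, Hist1h2ag and Hist1h2bj (17.3-fold), of Hist1h2bf, Hist1h2ad and Hist1h3d (14.6-fold), and of Hist1h4a, Hist1h3a and Hist1h1a (13.3-fold). Only the peak of Hist1h2bf, Hist1h2ad and Hist1h3d covered the start of all 3 genes. In all, 12 of the 25 peaks in WT and 13 of the 27 in cKO reached at least 2 windows.

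Many H2A and H2B genes are arranged as divergent pairs. There were 15 pairs of members with starts at most 1000 bp apart on opposite strands, and 14 of them joined an H2A and an H2B gene. The distance between the starts was 172 to 659 bp, with a median of 250 bp. A peak was shared by both genes in 9 pairs in each list and covered both starts in 7 pairs in WT and 8 in cKO. The window of each gene in a pair holds the start of its partner, so that a peak near either start is counted for both.

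Distances from summits to histone gene starts were also taken. The peaks had been chosen for overlapping a histone gene or its 1000 bp upstream, and the nearest of many clustered starts was used. Short distances are therefore partly set by this choice, and no background was computed for them. The summit could be placed where the leftmost start of a peak stood on at least 2 rows, so that it was taken as the called start from which the deposited summit offset is counted. This was so for 19 of the 25 peaks in WT and 20 of the 27 in cKO, in a description added after the values were seen. The distance to the nearest histone gene start had a median of 124 bp in WT and 142 bp in cKO. It was at most 250 bp for 13 WT and 15 cKO peaks, and at most 500 bp for all 19 WT peaks and 19 of 20 cKO peaks. The summit lay inside a histone gene in 12 peaks of each list and upstream of the nearest start in 6 WT and 8 cKO peaks. At the pair Hist3h2a/Hist3h2bb-ps the summit was placed at the same base in both lists, chr11:58954635, 50 bp upstream of Hist3h2a.

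The 4 genes with a peak in cKO alone were Hist1h4j, Hist1h1d, Hist1h3d and Hist1h2be, and 3 of their peaks lay below the median strength of the cKO list. Hist1h4j had a peak of 2.62-fold (15 fragments, 8.4 to 24.7, 890 bp), with its summit 24 bp upstream of the start. Hist1h1d had 3.11-fold (18 fragments, 10.7 to 28.4, 420 bp) and Hist1h2be 3.6-fold (21 fragments, 13.0 to 32.1, 406 bp). The Hist1h2be peak lay on its coding sequence (chr13:23585579-23585956) within an annotated span that also holds long transcripts, and its summit was at chr13:23585832. The fold enrichment of Hist1h4j was above 2.96% of the cKO list, that of Hist1h1d above 17.4% and that of Hist1h2be above 31.4%, and the lowest values of that list were 2.45-fold and 14 fragments. Hist1h3d was of another kind: its window was reached by the 14.6-fold peak of Hist1h2bf and Hist1h2ad, whose WT counterpart (9.76-fold) ended 3 bp short of that window. With the cKO list shortened to the length of the WT list by its q-values, only Hist1h3d remained (1 of 70, background 4.0%), and 37 genes had a WT peak and 38 a cKO peak. With peaks of −log10 q of at least 10 alone, 12 genes had a cKO peak alone, against a background of 9.97%, and 25 and 37 genes had a WT and a cKO peak.

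Genes outside the clusters that serve histone supply were mostly open in both lists. Of 17 genes for transcription and 3′ processing of histone mRNA, among them Npat, Slbp, Lsm11 and Casp8ap2, a promoter peak was found at 15 in WT and at 16 in cKO, with medians of 13.3-fold and 20.7-fold. Lsm10, a subunit of the U7 particle that cuts histone transcripts, had a peak in cKO alone (8.18-fold, 1034 bp). Hinfp, which activates H4 genes, had none in either. Of 14 histone genes outside the clusters, a promoter peak was found at 9 in each list, with medians of 12.8-fold and 19.8-fold. The 5 without were the germ-line linker histones H1foo, H1fnt and Hils1, the macroH2A gene H2afy2, and H2afx, whose product is phosphorylated on unpaired chromatin. These lists describe presence at promoters of any annotated transcript, for which the background was 49.6% and 56.7%.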

How the data were processed

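ATAC-seq of mouse pachytene spermatocytes was given as 1 peak list for the 4 Arid1a WT libraries and 1 for the 4 Arid1a cKO libraries. As described by the labels and by the study, the authors trimmed reads, aligned 50-bp pairs to mm10 with bowtie2, removed duplicates and mitochondrial reads, called peaks with MACS2 at q of 0.05 without a local background, removed blacklisted regions (intervals not given in the sources used here) and intersected the replicates. The fold enrichment the authors deposited is a ratio, pileup over background, and −log10 of the adjusted p-value was deposited beside it. The deposited integer score was not analysed, and the deposited summit offset is recorded under the unit other. Average signal tracks were not analysed here.

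Rows were collapsed by name with pandas 2.3.3 in Python 3.11.15. A gene had a peak when at least 1 bp of its body (GENCODE M21) or the 1000 bp upstream was overlapped, and the peak of highest fold enrichment was its strongest. Fragments at the summit were read from the grid of the fold values (all values fell on it) and have exact Poisson 95% intervals. Uniqueness was taken from 50-mers every 10 bp on both strands of GRCm38.p6. The overlap counting was tested on simulated data. Because each genotype is 1 list, no p-value was computed, and depth is known only as the background. Full values are given for the testis variants, all H1 genes, genes with a peak in 1 list alone, the 5 highest genes per list, the 5 largest width ratios and peaks over at least 3 genes. The members, lists and this rule were chosen with earlier results of these data known. Alternatives covered the unit of a peak, peak strength, list length, gene windows and the members included.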

Additional observations from a re-analysis of the deposited data

How the results depend on the processing

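Of 136 recomputed values (10 counts and medians, up to 14 settings), 128 stayed within the limits set for them (1.5 times for counts, the interval of the median otherwise), and 8 did not. The number of genes with a cKO peak alone was 4 of 70 in the main count. It was 8 with −log10 q of at least 5, 12 with at least 10 and 10 with peaks on 3 or more rows. It was 1 with lists of equal length and 2 with the promoter window alone. The background over protein-coding genes was 8.63% in the main count, 9.97% with −log10 q of at least 10 and 4.0% with lists of equal length. For the other settings no background was computed, so their counts are not read as a result about histone genes. The number of distinct WT peaks was 25, and 70 with each row taken as a peak and 15 with −log10 q of at least 10, and that of cKO peaks was 27 and, with each row taken as a peak, 81. The cause was not tested. Counts of genes with a peak ranged from 25 to 39 in the WT list and from 37 to 42 in the cKO list, and no gene had a WT peak alone in any setting. RefSeq gene spans, chosen after seeing the data, left all 10 values within the limits. Leaving out a replicate was not possible, because the lists hold no values per library. No paired analysis was possible because no result comes from a test. Depth limits the weak peaks: 13 and 14 fragments at the summit are the fewest in the lists.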
